A study of Mus musculus with 9 samples.

Results

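Adding a vector for the apolipoprotein A-I mimetic peptide L37pA to a vector for IFNα was examined by comparing the livers of 3 mice given the AAV combination with the livers of 3 mice given AAV-IFNα alone. These 6 arrays were chosen by their sample titles out of the 9 arrays of the study, and the 3 arrays of non-injected mice (Mock) serve as context. Each array read the liver RNA of a C57BL/6 mouse that was 6 weeks old, and livers of injected mice were taken 15 days after intravenous injection. The AAV-IFNα group carried an adeno-associated virus that makes the liver produce IFNα, and the AAV combination group carried the same vector and a vector encoding L37pA. By the study's methods the mice were female, and both transgenes were driven by the EF1α promoter in AAV of serotype 8. Arrays of the L37pA vector by itself or of an empty vector were not analysed here, and the combination means a larger amount of vector per mouse, so the peptide and the additional vector cannot be told apart.

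IFNα binds a receptor that most cells carry, and the kinases JAK1 and TYK2 then activate transcription factors, among them STAT2 and IRF9, which act at a promoter element called ISRE and switch on antiviral genes. IFNγ, a cytokine of NK and T cells, uses another receptor and acts mainly through an element called GAS, and many genes carry both elements or answer to both cytokines. Apolipoprotein A-I is the main protein of HDL, which carries cholesterol away from cells and is made largely by hepatocytes, and L37pA is a synthetic peptide that copies its amphipathic helices.

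The values are log2 expression values of probe sets, so that a difference of 1 is a factor of 2. Array medians lay between 5.78 and 5.83 over all probe sets, and arrays of the same group correlated at r of 0.97 or above over the 14715 tested. The hepatocyte genes marked the tissue as liver, with albumin (Alb) between 13.55 and 13.66 on every array, and transthyretin (Ttr) and apolipoprotein A-I (Apoa1) near 13 as well. The labels and methods do not say whether the 3 mice of a group were kept or their RNA extracted together or apart, and the p-values measure the spread between these arrays. The number of arrays limits the precision, with a median 95% half-width of 0.32 for the log2 fold change.

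Most of the probe sets that differed after adding AAV-L37pA were lower. Of 14715 probe sets tested, 324 were lower in the AAV combination than with AAV-IFNα alone (2.20%) and 58 were higher (0.394%), at a Benjamini-Hochberg adjusted p under 0.05 with limma, or 382 in all (2.60%). The median log2 fold change was -1.01 among the lower and 0.92 among the higher, and 164 of the lower and 25 of the higher changed by at least 1. Over all tested probe sets the median was 0.01, with the middle 50% between -0.12 and 0.13. At a B-statistic above 0, the threshold of the methods, 225 were lower (1.53%) and 37 higher (0.251%), or 262 in all (1.78%). Each count of calls in the lists below is to be read beside the shares of 2.20%, 0.394% and 2.60%, at which a short list can hold 0 calls. Tested probe sets exceeded 5 on 2 or more arrays of any group. Passing through 1 group alone favours finding that group higher. Of the 324 lower, 43 had a combination mean under 5, and of the 58 higher, 6 had an AAV-IFNα mean under 5.

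**Figure D1:**
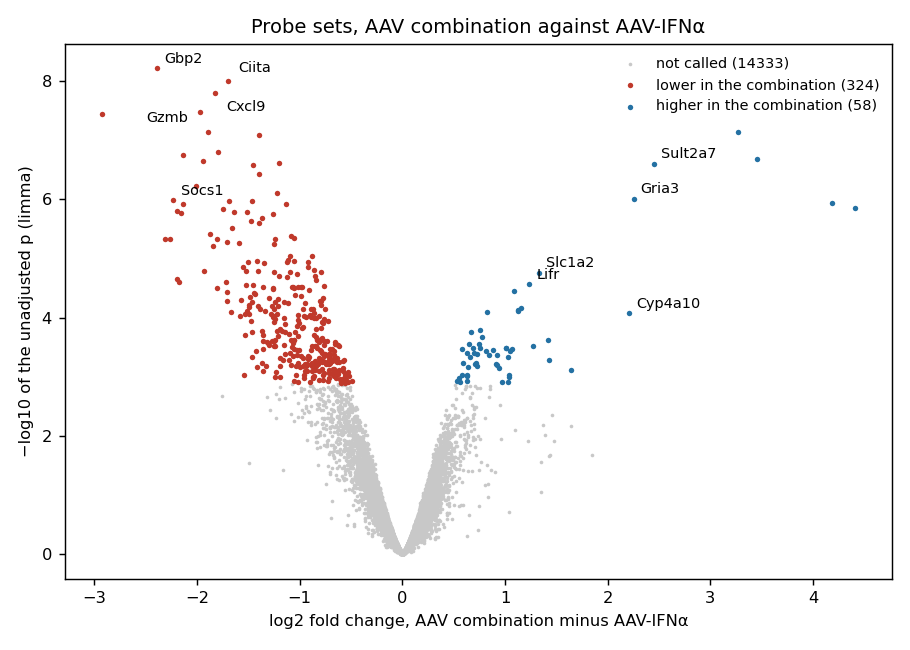
Each point is a probe set, with the log2 fold change of AAV combination minus AAV-IFNα on the horizontal axis and the -log10 of limma's unadjusted p on the vertical axis. The 324 lower probe sets (red) outnumber the 58 higher ones (blue), and the 14333 others (grey) were not called.

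The number called depended on single arrays. It was 155 when AAV-IFNα replicate 1 was left out, 245 when replicate 2 of that group was left out, and 152, 159 and 240 without AAV combination replicates 1, 2 and 3, whereas it was 495 without AAV-IFNα replicate 3. Between 81.9% and 89.9% of the calls were lower in each of these fits and in every other alternative tried. AAV-IFNα replicate 1 held the highest median value of the group for phagocyte, monocyte and NK cell genes, and replicate 3 the lowest, as the plot of list levels by array shows.

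**Figure D2:**
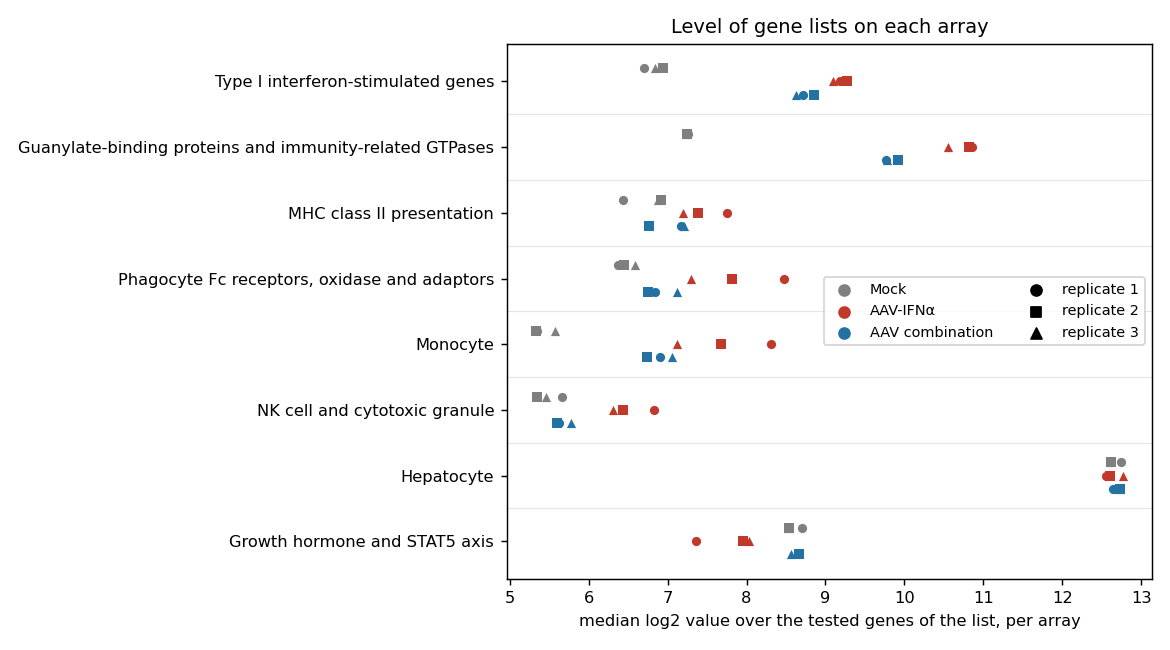
Each symbol is the median log2 value over the tested genes of a list on a single array (colour, group; shape, replicate). Among the lists plotted, the AAV-IFNα arrays lie above the combination arrays for type I interferon-stimulated genes, the GTPases, phagocytes, monocytes and NK cells and below them for the growth hormone list, whereas for MHC class II replicate 3 of the combination passes replicate 3 of AAV-IFNα and hepatocyte genes overlap.

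The gene with the largest fall was Gbp2, a guanylate-binding protein that attacks the vacuoles of intracellular pathogens. Its values were 10.14, 9.65 and 9.37 with AAV-IFNα and 7.31, 7.20 and 7.48 in the combination. Separate treated groups were a condition of this choice. The combination remained above the Mock values of 5.90, 6.06 and 5.79. The log2 fold change was -2.39 (standard error 0.18, limma adjusted p = 7.5e-05).

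Among the 12 genes with the largest falls were also Sirpb1c, a receptor of myeloid cells (-2.31, limma adjusted p = 0.0016), and Slamf7, a receptor of NK cells and activated leukocytes (-2.16, adjusted p = 0.00082). Ubd, a ubiquitin-like protein that marks proteins for the proteasome, read 6.74, 5.76 and 5.42 with AAV-IFNα and 3.87, 3.49 and 3.96 in the combination. Its combination values thus fell below the filter level of 5, where signals are treated as low, close to Mock values of 2.94, 3.17 and 3.23. The calcium channel gene Calhm6, whose product helps macrophages to activate NK cells, fell from 8.87, 7.97 and 7.84 to 6.06, 6.03 and 6.17 (-2.14, adjusted p = 0.00026). All 12 were chosen among genes called with no overlap between the treated groups (10.1% of all tested probe sets had none in this direction), and all 12 remained called without any single array.

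Fewer genes were higher in the combination. The 12 with the largest rises were likewise chosen among genes called with no overlap (7.40% of all tested probe sets had none in this direction). Only probe sets with a gene symbol could be chosen, and the unnamed probe sets given at the end rose more. Lifr, the receptor of leukaemia inhibitory factor, read 8.92, 9.45 and 9.56 with AAV-IFNα and 10.30, 10.71 and 10.64 in the combination and 10.56, 10.65 and 10.10 in Mock. All combination arrays lay above those of AAV-IFNα and near the level of Mock. The log2 fold change was 1.24 (limma adjusted p = 0.0053). Phlda1, a regulator of growth and survival, was higher by 1.09 (adjusted p = 0.0058), with 7.17, 7.80 and 7.81 against 8.59, 8.70 and 8.75.

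Sult2a7 and Gria3 behaved differently, since only the combination stood apart from Mock. Sult2a7, a liver sulfotransferase, read 3.74, 3.56 and 3.17 in Mock, 3.49, 3.81 and 3.33 with AAV-IFNα and 6.62, 5.44 and 5.93 in the combination. Both control groups lay below the filter level on every array, while all combination arrays exceeded it. The log2 fold change was 2.45 against AAV-IFNα (limma adjusted p = 0.00026) and 2.50 against Mock (adjusted p = 3.6e-05), whereas AAV-IFNα and Mock differed by 0.05 (adjusted p = 0.90). Gria3, a subunit of a glutamate receptor of neurons, read 5.18, 5.44 and 4.58 with AAV-IFNα, 4.50, 5.58 and 5.43 in Mock, and 7.32 on all 3 combination arrays (2.25, adjusted p = 0.00071). The SD of the combination arrays was 0.0035 for this gene, against 0.44 with AAV-IFNα and 0.59 in Mock. Sulfotransferase genes of this cluster are similar in sequence, so that their probe sets may read each other's transcripts.

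**Figure D3:**
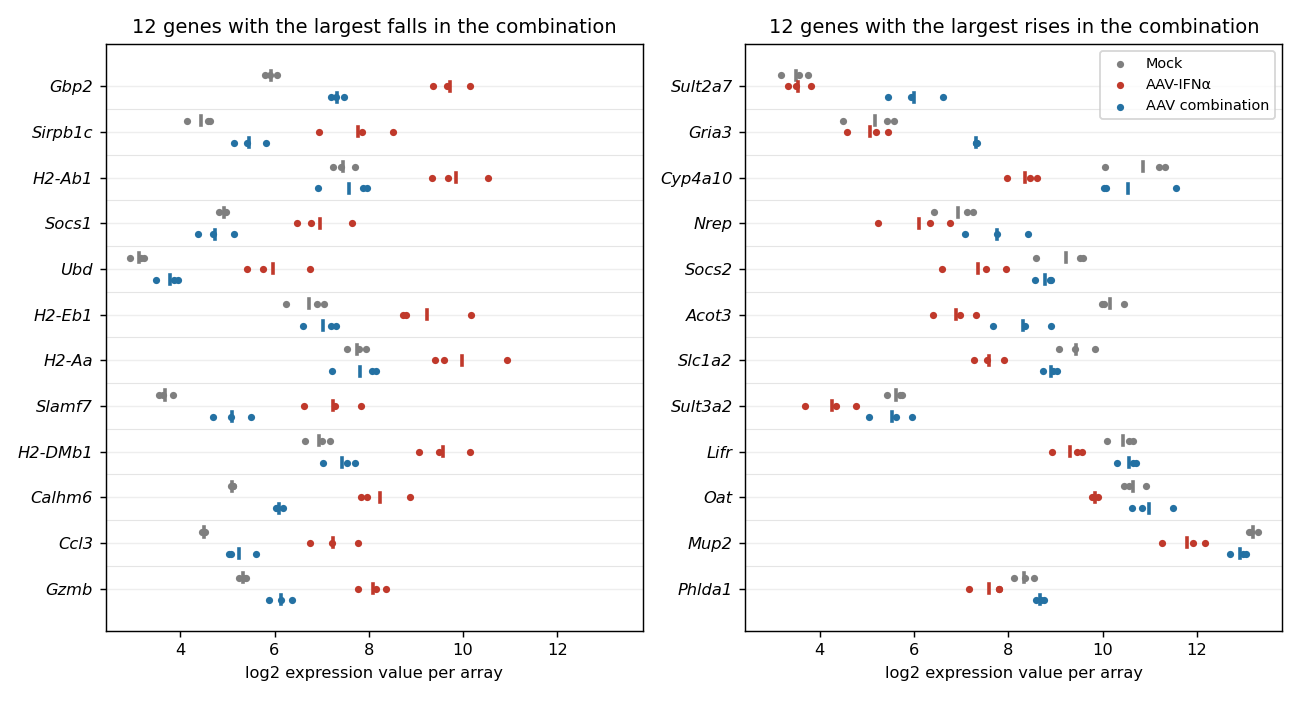
Log2 expression values of the 12 genes with the largest falls (left) and rises (right) among probe sets with a gene symbol, with a point per array and a bar at the mean of 3 arrays. On the left the AAV-IFNα points (red) lie to the right of the combination (blue), and on the right Sult2a7 and Gria3 are the rows in which Mock (grey) and AAV-IFNα share a range and the combination stands above both.

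The rises of Sult2a7, Gria3, Lifr and Phlda1 were called without any single array, but other large rises were less stable. Those of Nrep, Socs2, Acot3 and Sult3a2, with log2 fold changes of 1.65, 1.43, 1.42 and 1.27, were each lost without AAV-IFNα replicate 1 and without 2 or more of the combination arrays, and adjusted p then reached 0.15, 0.12, 0.094 and 0.11. For Nrep it was also lost without AAV-IFNα replicate 3, and with a trended and robust prior Nrep, Socs2 and Acot3 were not called.

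In the signalling chain of interferon, calls fell on inhibitors and transcription factors, and none fell on the ligand or receptors measured. The probe set of Ifna1, the ligand, read 6.56, 6.77 and 6.40 with AAV-IFNα and 7.06, 7.33 and 6.71 in the combination, with 5.76, 5.49 and 5.30 in Mock. The treated groups overlapped, and the difference of 0.46 (95% interval 0.08 to 0.84, limma adjusted p = 0.29) did not pass the test. Whether the probe set also detects the transcript of the vector is not stated in its annotation. The receptor subunits Ifnar1 and Ifnar2 differed by -0.03 (interval -0.32 to 0.26) and -0.28 (interval -0.56 to 0.00), and the transcription factors Irf9 and Irf7 by 0.03 (interval -0.25 to 0.32) and -0.12 (interval -0.40 to 0.15), none of which was called.

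Of 31 tested genes of interferon and JAK-STAT signalling, 5 were lower and 1 was higher, with a median of -0.15, and the number lower was 2 without AAV-IFNα replicate 1 or combination replicate 1 or 2 and 3 without combination replicate 3. Socs1, which binds JAK kinases and shuts off signalling by IFNα and IFNγ, read 7.65, 6.77 and 6.47 with AAV-IFNα and 5.14, 4.69 and 4.38 in the combination. The combination arrays lay at the level of Mock, where the values were 4.96, 4.83 and 4.98, and the log2 fold change was -2.23 (limma adjusted p = 0.00071). Nearly all of these combination and Mock values were low signals under 5. Socs1 passed the filter only through AAV-IFNα, so the filter favoured its direction. Irf1, a transcription factor that interferons induce and that drives MHC genes and GBPs, fell by 1.09 (adjusted p = 0.0039), from 10.38, 9.89 and 9.91 to 9.05, 8.88 and 8.97. The phosphatases Ptpn1 and Ptpn6, which remove phosphate from JAK and STAT proteins, were lower by 0.80 and 1.02 on the log2 scale, and Irf8, a factor of myeloid cells, by 0.64. The calls of these 3 genes each ended without AAV-IFNα replicate 1 and without combination replicates 1 and 2, with adjusted p up to 0.16. For Ptpn6 the call also ended without AAV-IFNα replicate 2, for Irf8 without AAV-IFNα replicate 3, and for Ptpn1 and Irf8 without combination replicate 3.

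The families of interferon target genes lay above Mock on the median in both treated groups, and they were called lower in the combination in different numbers. Of 13 tested guanylate-binding proteins and immunity-related GTPases (of 19 listed), 12 were lower in the combination, with a median of -1.05, and the exception was Irgc1 (-0.03, interval -0.38 to 0.32). These GTPases coat and break open the vacuoles of parasites and bacteria. Of 41 tested type I interferon-stimulated genes (of 44 listed), 6 were lower, with a median of -0.35. Of these 41, 36 lay below 0 and 5 above it. In 18 of them the combination arrays were lower with no overlap, where 10.1% of all probe sets had none in this direction. Against Mock the GTPases were higher by a median of 3.36 with AAV-IFNα and 2.04 in the combination, and the type I interferon-stimulated genes by 2.26 and 1.90. All 41 of the latter were called higher than Mock in both treated groups, where 11.2% of all probe sets with AAV-IFNα and 4.19% in the combination were called higher.

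Tgtp2, an immunity-related GTPase, read 11.56, 11.30 and 11.32 with AAV-IFNα and 9.90, 10.12 and 9.81 in the combination, against 6.38, 6.32 and 6.73 in Mock. The fall of 1.45 on the log2 scale (limma adjusted p = 0.00026) left it far above Mock. Igtp (-1.23, adjusted p = 0.00065) and Gbp9 (-1.26, adjusted p = 0.00083) had the same order of the 3 groups with no overlap. Isg15, a ubiquitin-like antiviral protein, read 8.87, 8.67 and 8.43 with AAV-IFNα and 8.53, 8.36 and 7.94 in the combination, with 5.20 to 5.22 in Mock. Its treated groups overlapped, and the difference of -0.38 (interval -0.73 to -0.03, adjusted p = 0.37) was not called. Ifit3, which binds viral RNA, differed by -0.42 (interval -0.82 to -0.03) and Usp18, the protease that removes ISG15, by -0.21 (interval -0.57 to 0.14).

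The number of GTPases called was 7 without AAV-IFNα replicate 1. The 6 calls among the type I interferon-stimulated genes were those of Ifit2, Mx1, Parp14, Zbp1, Herc6 and Dtx3l, and they numbered 0 without AAV-IFNα replicate 1 or 2 or combination replicate 3, 1 and 2 without combination replicates 1 and 2, 3 without Mock replicate 3, and 10 when AAV-IFNα replicate 3 was left out. Gbp, Irg and Tgtp genes lie in clusters of near-identical copies, and their probe sets may not be separable.

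**Figure D4:**
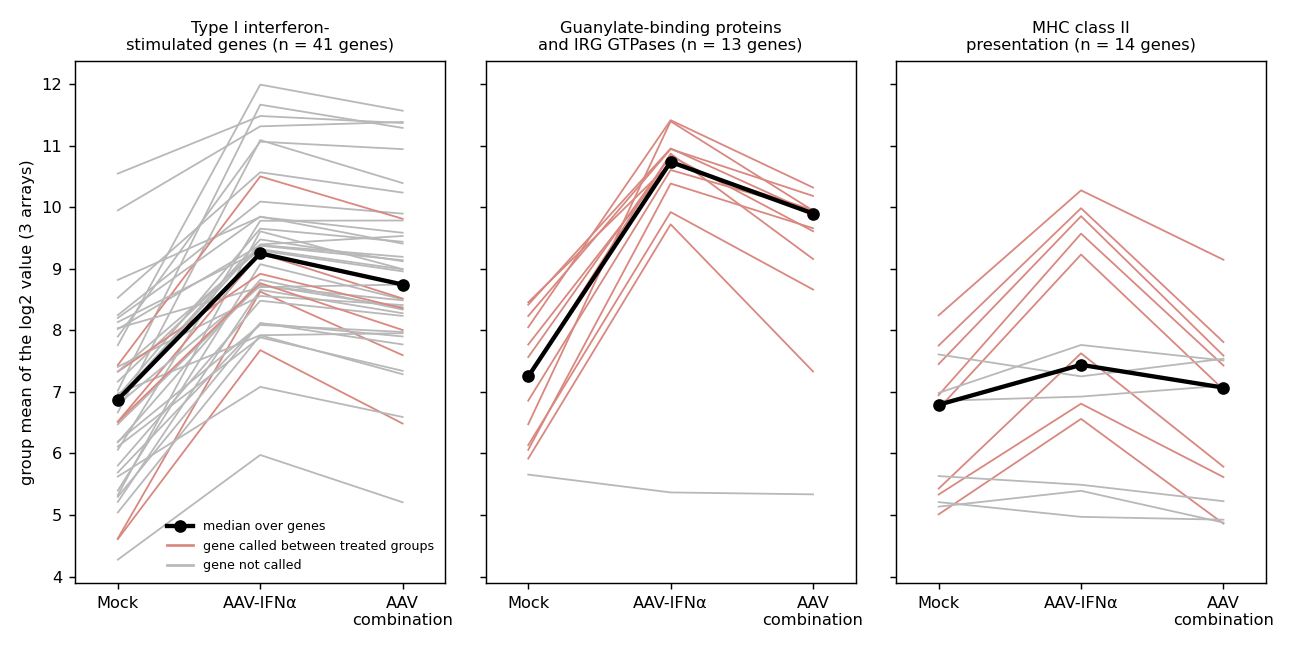
Each thin line joins the group means of the log2 value (3 arrays) of a gene in Mock, AAV-IFNα and the AAV combination, and the thick black line joins the medians over the genes of the list. Type I interferon-stimulated genes fell slightly on the median in the combination and stayed well above Mock. The GTPases fell part of the way, and most of the called MHC class II genes (red) fell close to Mock.

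The promoters of some of these genes are shown because the lists differ in how often they hold the elements named above. Every window shown holds a match, whereas other genes with large falls, such as Ubd, H2-Aa, Cxcl9 and Cd274, held neither element. Stretches of 150 bases upstream of the RefSeq start are given for build GRCm38.p6, 5′ to 3′ on the strand of the gene, with matches in capitals. The letters searched, on both strands of a window from 250 bases before to 50 after the start, were TTCNNNGAA for GAS and, for ISRE, GAAA followed after any 2 bases by another GAAA. In Tgtp2 and Igtp the first run of capitals is a GAS match and the second an ISRE match, and in Irf1 the match is GAS. The matches in Gbp2 (on the opposite strand), Socs1 and Isg15 are ISRE, where in the latter 2 genes neighbouring matches overlap. The windows are chr3:142620513-142620662 (plus strand) for Gbp2, chr11:49064213-49064362 (minus) for Tgtp2, chr11:58199406-58199555 (plus) for Igtp, chr16:10785537-10785686 (minus) for Socs1, chr11:53769864-53770013 (plus) for Irf1 and chr4:156200819-156200968 (minus) for Isg15.
Gbp2: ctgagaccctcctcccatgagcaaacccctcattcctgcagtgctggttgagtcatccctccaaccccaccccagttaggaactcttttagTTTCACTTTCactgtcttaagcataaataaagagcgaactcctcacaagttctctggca
Tgtp2: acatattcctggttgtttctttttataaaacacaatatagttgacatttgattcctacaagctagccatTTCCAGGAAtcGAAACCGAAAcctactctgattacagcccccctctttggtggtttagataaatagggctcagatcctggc
Igtp: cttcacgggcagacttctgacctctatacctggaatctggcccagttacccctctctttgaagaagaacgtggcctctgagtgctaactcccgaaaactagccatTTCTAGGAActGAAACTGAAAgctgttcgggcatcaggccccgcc
Socs1: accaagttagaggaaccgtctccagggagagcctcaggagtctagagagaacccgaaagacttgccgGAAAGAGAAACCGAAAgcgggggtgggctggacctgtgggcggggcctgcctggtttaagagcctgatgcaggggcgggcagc
Irf1: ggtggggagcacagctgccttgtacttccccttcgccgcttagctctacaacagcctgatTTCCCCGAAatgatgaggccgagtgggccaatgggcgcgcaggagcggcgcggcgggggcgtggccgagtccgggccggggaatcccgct
Isg15: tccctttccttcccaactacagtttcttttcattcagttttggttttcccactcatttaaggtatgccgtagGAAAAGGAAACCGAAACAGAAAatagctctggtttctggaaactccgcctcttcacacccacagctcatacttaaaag

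A promoter was found for 10680 of the 13247 tested genes, and 403 of these (3.77%) held an ISRE match. It was present in 39 of 233 genes called lower (16.7%) and 0 of 32 called higher, in 7 of 7 GTPases with a promoter and in 15 of 31 type I interferon-stimulated genes (48.4%). A GAS match was present in 888 of all 10680 (8.31%), in 32 of the 233 lower (13.7%), 4 of the 32 higher (12.5%), 4 of the 7 GTPases and 6 of the 31 type I genes (19.4%). Among MHC class II genes, ISRE and GAS matches were each present in 1 of 11 (9.09%). Of 16 chemokines and receptors, 3 held ISRE (18.8%) and 1 held GAS (6.25%). Of 17 phagocyte genes, 4 held ISRE (23.5%) and 2 held GAS (11.8%). Most genes called lower thus held neither. DR1, the element of PPARα and RXR that repeats AGGTCA after any 1 base, was present in 0 of the lower and 0 of the higher genes and in 5 of all 10680 (0.0468%). A match is a match of letters only, and the absence of one says nothing about a factor.

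Many genes for presenting peptides to CD4+ T cells fell, most of them back to about the level of Mock. Of 14 tested genes of MHC class II presentation (of 15 listed), 8 were lower and none was higher, with a median of -1.16, and between 7 and 8 were lower without any single array. Ciita, the master regulator that switches on MHC class II genes, read 6.78, 6.40 and 6.51 with AAV-IFNα, 4.97, 4.75 and 4.86 in the combination and 5.05, 5.03 and 4.95 in Mock. Its log2 fold change was -1.70 (standard error 0.13, limma adjusted p = 7.5e-05), and the combination differed from Mock by -0.15 (adjusted p = 0.53). The combination values lay below the filter level of 5 and the Mock values close to it, so this last difference compares low signals. H2-Ab1, a chain of the class II molecule, read 10.53, 9.69 and 9.35 against 7.88, 6.92 and 7.96 (-2.27, adjusted p = 0.0016), and the Mock values of 7.71, 7.41 and 7.23 lay within the range of the combination.

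The other chain genes H2-Aa (-2.17) and H2-Eb1 (-2.19), the peptide-loading genes H2-DMa (-1.84) and H2-DMb1 (-2.14), H2-DMb2 (-1.19) and Ctss, the protease that trims the invariant chain (-1.13), made up the rest of the 8. Of those not called, Rfx5, Rfxank and Rfxap, the subunits of the factor that binds class II promoters at all times, differed by -0.25, 0.18 and 0.29.

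MHC class I genes moved less. Of 19 tested, 5 were lower with a median of -0.42, and the count was 1 without AAV-IFNα replicate 1 or combination replicate 2 or 3, and 3 without AAV-IFNα replicate 2, combination replicate 1 or Mock replicate 1 or 3. Psmb9, an interferon-induced catalytic subunit of the immunoproteasome, read 9.34, 9.26 and 9.12 with AAV-IFNα and 8.26, 8.34 and 8.36 in the combination, with Mock at 6.71, 7.15 and 6.92. The difference of -0.92 (limma adjusted p = 0.0036) was called without any single array, unlike those of Tap1, the peptide transporter (-0.86), and Psmb8 (-0.76), which ended without AAV-IFNα replicate 1 or combination replicate 2 or 3, and for Tap1 also without combination replicate 1, with adjusted p up to 0.11. Of the 24 tested genes of the constitutive proteasome, 0 were called by limma, with a median of 0.01 and differences from -0.27 to 0.24, and 0 in every fit that left out an array. Against Mock these 24 genes were higher by a median of 0.45 in both treated groups. There 12 were called higher with AAV-IFNα and 9 in the combination, where 11.2% and 4.19% of all probe sets were.

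Some sensors of infection were also lower. Of 26 tested pattern recognition receptors, 6 were lower with a median of -0.46, and the number was 2 without AAV-IFNα replicate 1 or combination replicate 2 and 3 without AAV-IFNα replicate 2. Sting1, which reports cytosolic DNA, read 6.80, 6.80 and 5.96 with AAV-IFNα and 4.82, 4.74 and 5.22 in the combination, close to 4.41, 4.73 and 4.71 in Mock. The treated groups did not overlap (-1.59, limma adjusted p = 0.0018). Sting1 passed the filter only through AAV-IFNα, so the filter favoured its direction. Tlr1, a receptor for bacterial lipopeptides, differed by -1.44 (adjusted p = 0.0064).

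Several chemokines that attract T cells, NK cells and monocytes fell. Of 24 tested chemokines and receptors, 7 were lower with a median of -0.35, and between 5 and 8 were lower without any single array. Cxcl9, which IFNγ induces and which attracts T and NK cells through CXCR3, read 11.49, 11.47 and 11.23 with AAV-IFNα and 9.49, 9.68 and 9.54 in the combination. The combination lay midway to Mock, where the values were 7.67, 8.06 and 8.14 (-1.82, limma adjusted p = 8.0e-05). Cxcl10, another ligand of CXCR3, fell by 1.44 (adjusted p = 0.0063), and Ccl2, which attracts monocytes through CCR2, by 1.25 (adjusted p = 0.0018). Ccl3, a chemokine that attracts monocytes and lymphocytes, read 7.77, 7.22 and 6.76 against 5.08, 5.03 and 5.61 (-2.01, adjusted p = 0.00051). The uncalled members included Cxcl12 (0.23), which liver cells make at rest, and Cxcl13 (0.34), which attracts B cells.

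Some immune checkpoints and cytokines also fell. Of 28 tested, 6 were lower with a median of -0.41, and the number was 3 without combination replicate 1 or 2 and 10 without AAV-IFNα replicate 3. Cd274, which encodes PD-L1 and restrains T cells, read 9.43, 9.12 and 8.73 with AAV-IFNα, 7.06, 7.19 and 7.35 in the combination and 5.24, 5.17 and 5.51 in Mock. The 3 groups were separate, and the log2 fold change between the treated groups was -1.89 (limma adjusted p = 0.00015). Il18bp, the soluble inhibitor of IL-18, fell by 1.24 (adjusted p = 0.0016), and Tnfsf10, which encodes the death ligand TRAIL, by 1.42 (adjusted p = 0.0031). Tnf was lower by 1.48 on the log2 scale (adjusted p = 0.011), a call that ended without combination replicate 1 or 2, with adjusted p up to 0.064. The combination values of Tnf, 4.25, 4.05 and 4.42, were low signals.

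Phagocyte genes were among the groups with the largest falls. Of 24 tested Fc receptors, oxidase subunits and adaptors, 14 were lower and none was higher, with a median of -1.13, and the number was 9 without AAV-IFNα replicate 1 and 8 and 7 without combination replicates 1 and 2. Fcgr4, an activating receptor for IgG, read 8.51, 7.64 and 7.19 with AAV-IFNα and 6.00, 6.00 and 6.23 in the combination, with no overlap (-1.70, limma adjusted p = 0.0075). Fcer1g, the signalling chain that such receptors share, fell by 1.49 (adjusted p = 0.0070), the inhibitory receptor Pirb by 1.36 (adjusted p = 0.0054), and Ptprc, which encodes the leukocyte antigen CD45, by 1.20 (adjusted p = 0.0043).

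Of 22 tested effectors of cell death, 4 were lower with a median of -0.35, where 2.20% of all probe sets were called lower. Casp4, the sensor of cytosolic lipopolysaccharide that triggers pyroptosis, read 7.58, 7.01 and 7.31 with AAV-IFNα and 6.09, 5.75 and 6.28 in the combination, near the Mock values of 5.14, 5.61 and 5.84 (-1.26, limma adjusted p = 0.0055). The calls of Casp1 (-1.24), Pmaip1 (-0.84) and Ripk3 (-0.75) each ended without AAV-IFNα replicate 1 or 2 or combination replicate 1, those of Casp1 and Ripk3 without combination replicate 2 and that of Ripk3 without combination replicate 3, with adjusted p up to 0.16. The number of calls was then 1 without AAV-IFNα replicate 1 or 2 or combination replicate 1, and 2 without combination replicate 2. Ripk3 (4.58, 4.44 and 4.74 in the combination) and Pmaip1 (4.57, 5.04 and 4.94) passed the filter on low values only through AAV-IFNα.

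Markers of immune cells fell with these genes, and in RNA of whole liver fewer cells of a type and less RNA per cell cannot be told apart. Of 10 tested genes of NK cells and cytotoxic granules (of 17 listed), 7 were lower with a median of -0.87, and between 5 and 7 were lower without any single array. Their summed level was 10.2 to 10.8 with AAV-IFNα, 9.2 to 9.4 in the combination and 9.0 to 9.2 in Mock. Gzmb, the protease by which NK and T cells kill, read 8.38, 7.77 and 8.15 with AAV-IFNα, 5.88, 6.14 and 6.36 in the combination and 5.36, 5.24 and 5.41 in Mock. The treated groups stood apart by far more than their spread (-1.97, limma adjusted p = 0.00011). Gzma (-1.40, adjusted p = 0.0011), the activating receptors Klrk1 (-1.02, adjusted p = 0.0054) and Ncr1 (-0.86, adjusted p = 0.0097) and the chemokine Ccl5 (-1.57, adjusted p = 0.0075) fell with it. The NK markers Klrb1c, Klrd1 and Eomes had AAV-IFNα means of 4.66, 3.64 and 4.56 and did not pass the filter on low values. Of the 16 listed genes on the array, 8 had a Mock mean under 5 and 7 a combination mean under 5, against 6 with AAV-IFNα. Ncr1 passed only through AAV-IFNα (5.18, 5.35 and 5.32, against 4.56, 4.63 and 4.08 in the combination), so the filter favoured its direction.

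Of 13 tested monocyte markers, 6 were lower with a median of -1.23, but leaving out combination replicate 1, 2 or 3 gave 0, 1 or 3, and leaving out AAV-IFNα replicate 1 or 2 gave 2 or 3. Their summed level was 11.5 to 12.8 with AAV-IFNα, 10.9 to 11.3 in the combination and 9.6 to 9.8 in Mock. Ly6c2, which marks inflammatory monocytes, read 10.33, 9.88 and 8.81 with AAV-IFNα and 8.28, 7.83 and 8.52 in the combination, so that the groups did not overlap but came close. Mock was at 4.87, 4.77 and 4.22, and the difference of -1.47 had a limma adjusted p of 0.027 that rose to 0.13 at most without AAV-IFNα replicate 1 or 2 or combination replicate 1 or 2, and was not called with a trended and robust prior. Ccr2, the receptor that monocytes use to leave the marrow, overlapped between the groups (6.92, 6.47 and 4.99 against 4.64, 4.76 and 5.27) and was not called (-1.24, interval -2.03 to -0.44, adjusted p = 0.12), except without AAV-IFNα replicate 3. The part of such markers in the falls of the other immune genes was not tested.

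Markers of resident macrophages gave 1 call in each direction. Of 12 Kupffer cell markers, 8 lay below 0 and 4 above it, with a median of -0.40, and Adgre1, which encodes F4/80, was lower (-0.80, limma adjusted p = 0.029) and Cd163, the scavenger receptor for haemoglobin, was higher (1.00, adjusted p = 0.023). Cd163 read 5.37, 5.52 and 6.29 with AAV-IFNα, 6.72, 6.65 and 6.83 in the combination and 6.95, 6.59 and 6.52 in Mock, so that the combination lay at the level of Mock. The number lower was 4 without AAV-IFNα replicate 3 and 2 without combination replicate 3. Both calls ended without AAV-IFNα replicate 1 or 2 or combination replicate 1 or 2, and that of Cd163 also without combination replicate 3, with adjusted p up to 0.14. Clec4f and Vsig4, which in the mouse mark Kupffer cells, differed by 0.32 (interval -0.04 to 0.68) and 0.22 (interval -0.13 to 0.57), and Timd4 by -0.42 (interval -0.74 to -0.10), none of them called.

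Other cell types gave few calls, where 2.20% of all probe sets were called lower. Of 11 tested dendritic cell markers, 2 were lower, with a median of -0.17, and these were Irf8, given above, and Itgax. Itgax, which encodes the dendritic cell antigen CD11c, was lower by 1.12 on the log2 scale (limma adjusted p = 0.0077). It read 6.05, 5.43 and 5.94 with AAV-IFNα, 4.35, 4.71 and 5.01 in the combination and 4.94, 4.89 and 4.75 in Mock. It thus passed the filter on low values only through AAV-IFNα. Of 15 tested markers of sinusoidal endothelial cells, 1 was lower, with a median of -0.07. This was Cdh5, the adhesion molecule VE-cadherin (-0.63, adjusted p = 0.028), whose call ended without AAV-IFNα replicate 1 or 2 or any of the combination arrays, with adjusted p up to 0.15. Vim, the intermediate filament vimentin of mesenchymal cells and leukocytes, read 9.71, 9.28 and 9.04 with AAV-IFNα and 7.93, 7.70 and 8.01 in the combination (-1.46, adjusted p = 0.00071), and it was the only call among 14 tested genes of stellate cells and matrix, whose median was -0.03. Hepatocyte markers had 0 calls of 13 with a median of 0.01, and neutrophil markers 0 of 6 with a median of 0.02, where S100a8 did not pass the filter. Of the T cell genes, 2 of 10 were lower, Cd8b1 (-1.26), whose adjusted p rose to 0.050 without combination replicate 2, and Thy1 (-0.64), whose call was lost without any of 7 of the 9 arrays and under 4 of the other settings.

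The acute phase response, in which hepatocytes secrete defence proteins, was lowered in some of its members. Of 26 tested genes, 5 were lower with a median of -0.29, and the number was 2 without AAV-IFNα replicate 1 or combination replicate 2 and 3 without AAV-IFNα replicate 3 or combination replicate 3. Lcn2, which binds bacterial siderophores, read 11.91, 11.42 and 11.52 with AAV-IFNα, 9.36, 9.55 and 10.12 in the combination and 6.04, 6.93 and 7.41 in Mock. The 3 groups were separate (-1.93, limma adjusted p = 0.0039). Serpina3f, a protease inhibitor of a multigene cluster, fell by 1.75 (adjusted p = 0.00080). Of 27 complement genes 0 were called by limma, with a median of -0.20. The largest differences there were those of C1qc (-0.72, interval -1.18 to -0.26) and C1qb (-0.69, interval -1.15 to -0.23), which were called without AAV-IFNα replicate 3 and whose transcripts come mainly from macrophages.

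Hepatocyte genes that AAV-IFNα had lowered were higher in the combination in a few groups. Growth hormone acts on hepatocytes through STAT5, which induces Igf1, Igfals, Socs2 and the major urinary proteins. Of 16 tested genes of this axis, 3 were higher and none lower with a median of 0.31, where 0.394% of all probe sets were called higher, and the number was 1 without AAV-IFNα replicate 1 or any of the combination arrays. Besides Lifr, these were Socs2, which read 6.60, 7.94 and 7.52 with AAV-IFNα and 8.88, 8.91 and 8.57 in the combination, and Igfals, which carries IGF-1 in blood (0.73, limma adjusted p = 0.032), whose call ended without AAV-IFNα replicate 1 or 2 or any of the combination arrays, with adjusted p up to 0.15. The receptor Ghr differed by 0.20 (interval -0.16 to 0.56) and Igf1 by 0.45 (interval 0.07 to 0.84), neither of them called. Against Mock, 5 of the 16 were lower with AAV-IFNα and 1 in the combination, where 5.06% and 1.03% of all probe sets were called lower.

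Mup2, a major urinary protein that carries pheromones, read 11.27, 12.18 and 11.91 with AAV-IFNα, 12.97, 13.05 and 12.70 in the combination and 13.30, 13.11 and 13.15 in Mock. The combination lay between the other groups (1.12, limma adjusted p = 0.0091), and without its replicate 2 adjusted p was 0.053. Genes of this family are near-identical copies and their probe sets may not be separable.

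Some genes expressed around the central vein were higher. Of 16 tested, 3 were higher with a median of 0.24, where 0.394% of all probe sets were called higher. Between 2 and 3 were higher without any single array. Slc1a2, a glutamate transporter, read 7.27, 7.55 and 7.92 with AAV-IFNα, 8.95, 8.74 and 9.04 in the combination and 9.84, 9.07 and 9.41 in Mock, with the treated groups far apart (1.33, limma adjusted p = 0.0039). Oat, an enzyme that converts ornithine to glutamate, read 9.82, 9.78 and 9.90 against 10.83, 10.63 and 11.49 (1.15, adjusted p = 0.0087). The call of Cyp2e1, which oxidises ethanol (0.63, adjusted p = 0.047), ended without any of 8 of the 9 arrays and under 3 of the other settings.

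Cyp4a10, which hydroxylates fatty acids under the control of PPARα, read 8.46, 7.96 and 8.60 with AAV-IFNα and 11.55, 10.02 and 10.07 in the combination, a range that overlapped that of Mock (11.33, 10.05 and 11.20). The log2 fold change was 2.20 (limma adjusted p = 0.0097), with an adjusted p of 0.051 without AAV-IFNα replicate 2 and 0.10 with a trended and robust prior. It and Acot3, an acyl-CoA thioesterase, were the 2 genes called of 36 tested genes of fatty acid oxidation and PPARα, whose median was 0.29. Cyp4a14 overlapped between the groups, with 9.62, 7.30 and 8.53 against 11.68, 9.26 and 8.57, and was not called (1.35, interval -0.23 to 2.93). Cyp4a12a, which in the mouse is expressed mainly in males, moved the other way, from 5.18, 6.10 and 5.24 with AAV-IFNα to 3.88, 4.02 and 4.07 in the combination (-1.52, adjusted p = 0.0039), with Mock at 4.13, 4.64 and 4.01. It passed the filter only through AAV-IFNα, which favoured this direction.

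**Figure D5:**
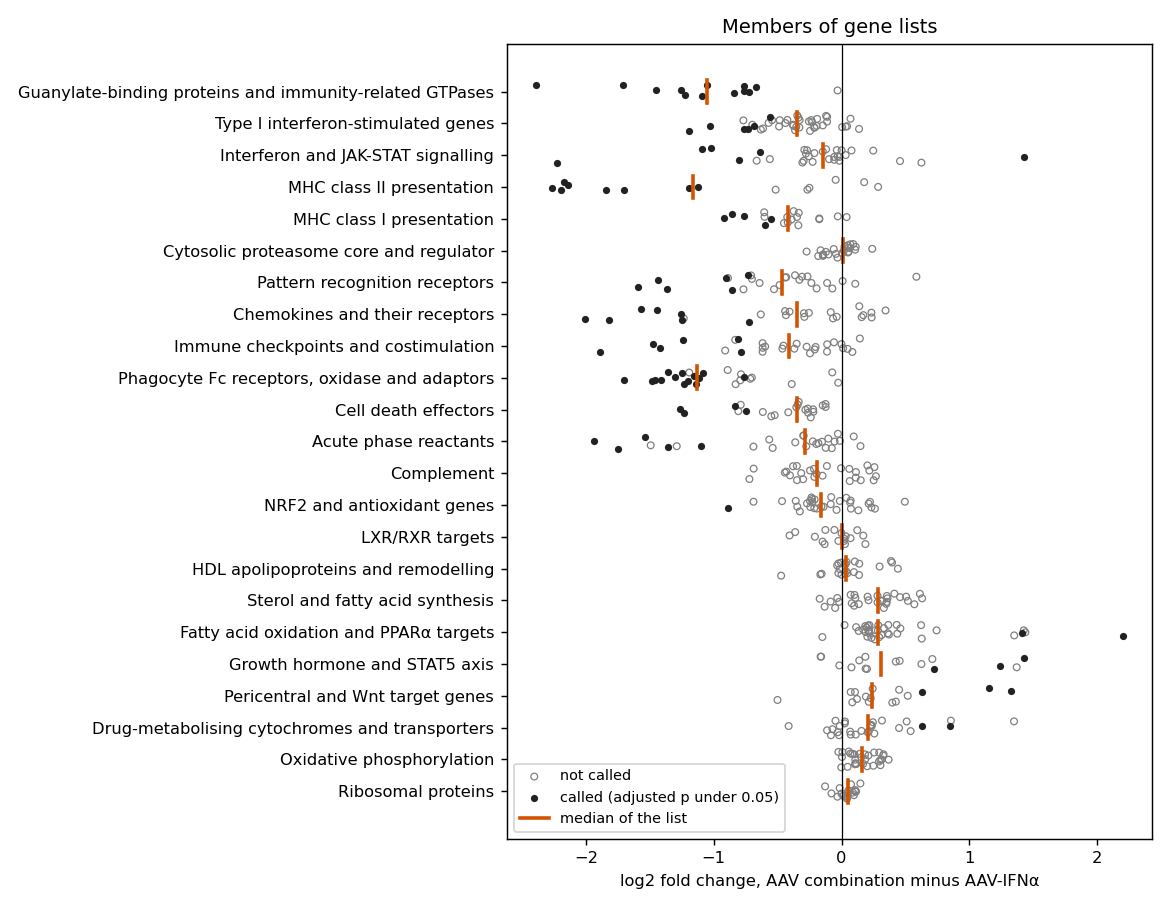
Each point is a tested gene of a list, with its log2 fold change of AAV combination minus AAV-IFNα on the horizontal axis, filled where called, and an orange bar marks the median of the list. Calls lie to the left for the immune lists, except Socs2 in the signalling list, with medians down to -1.16 for MHC class II. They lie to the right for the growth hormone, PPARα and pericentral lists and for drug-metabolising cytochromes and transporters, while LXR targets, HDL genes and the proteasome centre on 0.

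Since L37pA copies the main protein of HDL, the genes of cholesterol transport were examined. Of 17 tested LXR/RXR targets 0 were called by limma, with a median of -0.00 and differences from -0.41 to 0.19, and of 22 tested genes of HDL 0 were called, with a median of 0.03 and differences from -0.47 to 0.44. With 2.60% of all probe sets called, lists this short can hold 0 calls without differing from other genes. Lpl, the lipoprotein lipase that LXR induces, read 8.90, 8.50 and 8.36 with AAV-IFNα and 8.46, 8.09 and 7.98 in the combination, with overlap (-0.41, interval -0.78 to -0.03, adjusted p = 0.36). Apoe, the apolipoprotein of remnant particles, differed by 0.03 (interval -0.21 to 0.28) and Scarb1, the HDL receptor SR-BI, by 0.10 (interval -0.29 to 0.49). Apoa1 itself differed by -0.01 (interval -0.30 to 0.27).

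Among lists with 0 calls were bile acid synthesis and transport (20 genes, median 0.13), sterol and fatty acid synthesis (30 genes, median 0.28), oxidative phosphorylation (30 genes, median 0.16), the unfolded protein response (22 genes, median 0.03), the circadian clock (17 genes, median 0.03) and ribosomal proteins (18 genes, median 0.05). At the overall share of 2.60% called, 0 calls in lists of this size do not set them apart from other genes. Above 0 lay 28 of 30 genes of oxidative phosphorylation, 24 of 30 of sterol and fatty acid synthesis and 15 of 20 of bile acids. For the unfolded protein response, the clock and ribosomal proteins it was 13 of 22, 10 of 17 and 13 of 18. Of all 14715 probe sets, 7517 lay above 0, and these directions were not tested. Cell cycle genes also had 0 calls of 27, with a median of -0.36, and Mki67, a marker of dividing cells, read 7.69, 7.39 and 7.04 with AAV-IFNα and 5.76, 6.61 and 6.80 in the combination (-0.98, interval -1.58 to -0.38, limma adjusted p = 0.10). The groups of Mki67 did not overlap, although the difference missed the threshold. Over all 14715 probe sets, 1741 had an unadjusted p under 0.05.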

How the data were processed

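Liver RNA of 9 mice was measured on 1 array each. The array is a Clariom S mouse array by the methods and a different Affymetrix array by the series' own design text. The molecule is polyA RNA by the labels and total RNA by the methods. The authors deposited log2 values made with the RMA algorithm, as the submitters' processing notes state, which correct background, normalize between arrays and sum probes into probe sets. Such values compress differences of weak signals. The genome build of the probe sets is not given in the sources used here.

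Groups were taken from the sample titles. The filter of the methods, read on the log2 scale, asks for values above 5 on 2 or more arrays of any group, and 14715 of 22142 probe sets passed it and were tested. Named genes that passed only through AAV-IFNα included Socs1, Ubd, Sting1, Tnf, Ncr1, Itgax, Cd8b1, Ripk3, Pmaip1, Ccr2, Cyp4a12a and Acod1. Sult2a7 passed only through the combination. On the deposited scale this filter had not been applied to the table. The paper states a number of selected probe sets about equal to the whole table, so its selection was not reproduced here. limma 3.58.1 in R 4.3.3 fitted 1 model to all 9 arrays, with 6 residual and 6.91 prior degrees of freedom, two-sided tests and Benjamini-Hochberg adjustment over all 14715. For 3 arrays against 3 the smallest p of an exact two-sided permutation test is 0.10. Intervals cover 95% and are not adjusted. The method was tested on simulated arrays.

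The platform annotation gives 1 gene symbol to 19527 probe sets, and the other 2615 are not named. For a gene with several probe sets, that of the highest mean stands for the gene. Named are the 12 lower and 12 higher genes with the largest log2 fold change among those called with no overlap, up to 4 members of each list with the smallest p, the first 3 measured markers of each cell type, Ifna1, Isg15 and Rplp0. Rplp0, a ribosomal reference gene, differed by 0.05 (limma adjusted p = 0.94). Further members of lists, named to complete a count or a pathway, were chosen after their values were seen. All members and lists were chosen with earlier results of these data known. Summed levels are the log2 of the sum of the linear values of a marker list. Promoters came from RefSeq (GRCm38.p6). Alternatives were another or no filter, a trended and robust prior, only the 6 arrays, a replicate block, another quantile normalization, median centring, weights of arrays, a single probe set per gene, a log2 fold change of at least 1 and leaving out each array. Figures used matplotlib 3.10.9.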

Additional observations from a re-analysis of the deposited data

How the results depend on the processing

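The 382 probe sets called became 189 with a log2 fold change of at least 1 (164 lower, 25 higher). Leaving out each array in turn gave between 152 and 495 called, 134 and 445 lower, 16 and 69 higher and 159 and 332 with a B-statistic above 0, where fits without an AAV-IFNα or combination array rest on 2 arrays of that group. Under the other alternatives the 4 counts moved by less than 1.5 times, with 338 to 532 called. Rescaling shifted the median of all probe sets to at most 0.03. The fit was not paired by replicate number. Deviations of same-numbered arrays correlated at 0.08, 0.0047 and -0.12, and the arrays numbered 2 and 3 did not correlate best with their own number. Such correlations cannot exclude a batch shared by number, which the labels do not state. A replicate block gave 430 called, 354 of them lower and 76 higher, and lost none of the calls of named genes. Of 92 genes called and named or listed, 53 kept the call without any single array, and none changed sign under any alternative. Of genes not called, the difference without single arrays ranged from -0.014 to 0.040 for Alb, -0.045 to 0.11 for Irf9 (-0.018 with array weights), -0.18 to 0.087 for Irgc1 and -0.10 to 0.074 for Ifnar1, so that these have no direction. The cause of these shifts was not tested. Signals below 5 and 3 arrays a group limit what could be called.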

Other observations

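Genes in this part were chosen after their values were seen, and no test beyond the limma fit was made for them. Acod1, which makes the antimicrobial metabolite itaconate in macrophages, read 7.35, 6.99 and 6.60 with AAV-IFNα, 4.96, 4.79 and 5.35 in the combination and 4.48, 4.40 and 4.77 in Mock, a log2 fold change of -1.94 (limma adjusted p = 0.00026). Spic, a transcription factor of iron-recycling macrophages, read 7.91, 7.45 and 7.27 against 5.82, 5.03 and 6.16, with 4.04, 3.87 and 4.13 in Mock (-1.87, adjusted p = 0.0015). Neither gene overlapped between the treated groups, and both calls held without any single array. Acod1 passed the filter only through AAV-IFNα, which favoured its direction.

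Of 25 tested genes of glycolysis, 6 were lower, with a median of -0.03. Pkm, the pyruvate kinase of non-hepatocyte cells, read 9.66, 8.97 and 8.95 with AAV-IFNα and 7.81, 7.52 and 7.81 in the combination (-1.48, limma adjusted p = 0.0010), and the others were Hk1, Hk2, Hk3, Pfkp and Pfkfb3, none of them the main isoform of hepatocytes. The number was 2 without AAV-IFNα replicate 1 or 2 or combination replicate 1, and 1 and 3 when combination replicates 2 and 3 were left out. Of 18 lysosomal proteases and related enzymes, 5 were lower, led by the thiol reductase Ifi30 (-1.40, adjusted p = 0.00035), and 3 without AAV-IFNα replicate 1 or 2 or combination replicate 1 or 2.

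Of all 9 major urinary protein symbols, 5 were called higher with a median of 0.91, and the number was 1 without AAV-IFNα replicate 1 or combination replicate 1, 0 without the latter group's replicate 2 and 3 without its replicate 3. Of 8 tested MS4A genes 5 were lower (median -1.27), and of 8 tested Schlafen genes 3 were lower (median -0.62). The MS4A count was 3 without AAV-IFNα replicate 1 or 2 and 2 without combination replicate 1 or 2, and the Schlafen count was 1 without any of these arrays and 5 without AAV-IFNα replicate 3.

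The largest differences of all belonged to probe sets that the platform annotation leaves unnamed. TC0700003909.mm.2 read 11.05, 12.09 and 11.07 in Mock, 4.30, 6.79 and 6.52 with AAV-IFNα and 9.63, 10.41 and 10.79 in the combination, a log2 fold change of 4.41 (limma adjusted p = 0.00080). TC0700003908.mm.2 had the same order, with 10.83, 11.84 and 10.92, then 4.50, 6.61 and 6.75, then 9.53, 10.26 and 10.63 (4.18, adjusted p = 0.00071). Their genes were not identified here.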
